A study of Homo sapiens with 6 samples.

Results

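The 37 genes described here belong to the unfolded protein response of the endoplasmic reticulum (ER) and to the integrated stress response. They were found by matching a list of symbols to the table of the study, which held 16570 genes, and every one of the 37 was in it. They were read in 2 arms, 20 genes of the integrated stress response (ATF4, its partner factors, its targets and the kinases EIF2AK3 and EIF2AK4) and 17 genes of the ER unfolded protein response (chaperones, ER-associated degradation, ERN1, XBP1 and ATF6).

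Secreted and membrane proteins fold in the ER with the help of chaperones such as HSPA5, and an excess of unfolded protein is sensed by transmembrane proteins encoded by ERN1 (IRE1), EIF2AK3 (PERK) and ATF6. IRE1 splices the mRNA of XBP1, ATF6 is cleaved to release a transcription factor, and both raise chaperone and degradation genes. PERK, and GCN2 (EIF2AK4) on amino acid shortage, phosphorylate the initiation factor eIF2, which slows protein synthesis while translation of the factor ATF4 rises, and ATF4 in turn drives genes of amino acid synthesis and of feedback on eIF2. These steps act on splicing, cleavage and translation, which read counts per gene do not show, so the values below are mRNA levels and not the activity of a sensor.

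RNA-seq covered BR-shCON cells (3 samples) and BR-shSPANXB1 cells (3 samples). Both derive from MDA-MB-231BR (BR), a brain metastatic variant of the triple-negative breast cancer line MDA-MB-231. The study kept BR cells in DMEM with FBS and G418. Both groups were given as stable lines selected with puromycin after lentiviral infection. BR-shCON cells carried the control vector, called empty by the study, and BR-shSPANXB1 cells an shRNA against SPANXB1, a cancer-testis antigen, from the single sequence that had worked best. Each group is therefore 1 line, and the extraction protocol of the labels, shared by all samples, names BR cells and the parental line in place of the knockdown. The general methods of the study call replicates independent and made from different cell batches. No source says what samples with the same replicate number share, and p-values measure the spread between these samples.

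Depth was even, at 16294462 to 16666167 counts per sample. SPANXB1 itself stood at 445, 563 and 515 FPKM (fragments per kilobase of transcript, scaled to depth) in BR-shCON and at 232, 259.7 and 248 FPKM in BR-shSPANXB1, a log2 fold change of -1.11 (SE 0.05), so the knockdown was partial. Vimentin, CD44, EGFR, KRT8 and KRT18, markers of the line, were all expressed, with summed levels of 2930 to 3010 FPKM in BR-shCON and 3030 to 3240 FPKM in BR-shSPANXB1. Of the luminal markers only FOXA1 and KRT19 reached 1 FPKM, while ESR1, PGR and GATA3 did not. Of 5 endothelial markers PECAM1 and KDR did, with a sum of 2.82 to 3.53 FPKM over the list, of 5 leukocyte markers only CD68 and of 5 neural markers only MBP. The leukocyte sum was 76.0 to 78.4 FPKM in BR-shCON and 65.2 to 70.3 FPKM in BR-shSPANXB1, and its part in the results was not tested.

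The responses are known to act through short promoter elements, and the stretches before the start of called members that hold such an element are shown so that a reader can see them beside the levels. Promoters of 300 bases (250 before and 50 after the start) were taken from RefSeq on GRCh38.p14 for 35 of the 37 genes, and searched on both strands. The ER stress response element (ERSE) was read as CCAAT and CCACG 9 bases apart, ERSE-II as ATTGG and CCACG 1 base apart, the unfolded protein response element (UPRE) as TGACGTGG, and the C/EBP-ATF response element (CARE), bound by ATF4 with a C/EBP partner, as TGATGNAA. ERSE was found in XBP1, HSPA5, HSP90B1 and CRELD2, against 0.0769% of all 35116 promoters, and ERSE-II in HYOU1, SDF2L1 and HERPUD1, against 0.0541%. UPRE was found in HYOU1 (0.729% of all promoters), where it overlaps one of its ERSE-II matches. CARE was found in ATF3, CHAC1, PPP1R15B, ASNS and HERPUD1 (3.62% of all promoters). The genes were listed as members of these responses, so the shares beside all promoters are descriptive and test nothing. The match in CHAC1 lies within an exon of longer GENCODE transcripts of that gene and its stretch is not shown. The 3 stretches below run 5′ to 3′ on the strand of the gene, end just before the start, hold no GENCODE exon, and have the matched letters in capitals.
HSPA5 (chr9:125241344-125241593, minus strand, ERSE from 66 bases before the start): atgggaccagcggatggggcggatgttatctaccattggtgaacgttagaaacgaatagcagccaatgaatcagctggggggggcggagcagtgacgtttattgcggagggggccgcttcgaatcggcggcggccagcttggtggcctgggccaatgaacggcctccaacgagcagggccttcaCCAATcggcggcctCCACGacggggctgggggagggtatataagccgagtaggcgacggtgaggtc
HYOU1 (chr11:119057206-119057455, minus strand, ERSE-II from 185 and 79 bases before the start and UPRE from 188): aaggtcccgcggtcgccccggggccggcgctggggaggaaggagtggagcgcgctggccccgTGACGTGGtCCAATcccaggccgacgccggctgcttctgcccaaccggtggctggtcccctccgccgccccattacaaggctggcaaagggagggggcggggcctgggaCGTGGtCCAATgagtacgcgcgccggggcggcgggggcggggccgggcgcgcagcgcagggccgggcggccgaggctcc
PPP1R15B (chr1:204411818-204412067, minus strand, CARE from 227 bases before the start): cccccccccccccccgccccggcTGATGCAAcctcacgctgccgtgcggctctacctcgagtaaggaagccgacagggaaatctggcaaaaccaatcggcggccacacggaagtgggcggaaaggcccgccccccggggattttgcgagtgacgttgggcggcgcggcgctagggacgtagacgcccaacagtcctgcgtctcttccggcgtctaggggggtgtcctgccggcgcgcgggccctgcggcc
A match says that these letters are present, not that a factor binds there, and these data hold no measure of binding.

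After SPANXB1 knockdown a few genes of the ATF4 target and feedback groups were slightly higher and a few ER chaperones, with ATF6, slightly lower, and none of the changes was large. Of the 37 genes, 4 passed the test as higher (CHAC1, MTHFD2, PPP1R15A and PPP1R15B) and 4 as lower (ATF6, HSPA5, DNAJB11 and HYOU1), where passing means a Benjamini-Hochberg adjusted p under 0.05 over all 11439 genes tested with edgeR. The 8 called genes were 21.6% of the members, beside 13.8% of all genes tested, made up of 6.82% higher and 6.98% lower. All 4 higher genes were among the 20 of the integrated stress response, and all 4 lower genes among the 17 of the ER unfolded protein response. Fold changes in the first arm were above 0 for 16 genes and below for 4, with a median log2 fold change of 0.084. In the second arm 5 were above 0 and 12 below, with a median of -0.064, while over all genes 5731 were above and 5708 below 0, with a median of 0.0. Neither the difference between the arms nor that from all genes was tested. Opposite to these directions, 0 genes of the first arm were lower and 0 of the second higher with edgeR, while 2 and 2 were at an unadjusted p under 0.05 (26.9% of all genes in either direction), and DESeq2 and limma called 0.

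These counts changed when single samples were left out. Over all genes, such fits called 532 to 714 higher and 509 to 752 lower, against 780 and 799 with all samples. The 4 higher genes of the integrated stress response became 2 when control replicate 3, knockdown replicate 1 or knockdown replicate 2 was left out, and 5 without knockdown replicate 3. Genes of that arm called lower became 2 without control replicate 3 and 1 without knockdown replicate 1. The 4 lower ER genes became 2 when control replicate 1 or 2 or knockdown replicate 1 was left out, 1 without knockdown replicate 3, and 3 in the remaining fits.

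The largest fold change of any member was 0.27 on the log2 scale, so with an adjusted p under 0.05, a log2 fold change over 0.59 in either direction and a mean control level over 1 FPKM, the criteria of the study, 0 members were called, beside 0.621% of all genes. An unadjusted p under 0.05 was reached by 16 of the 37, beside 26.9% of all genes. At the adjusted threshold DESeq2 gave 2 members higher and 3 lower, and limma, run on log2(FPKM + 0.1), gave 1 and 0. Over all genes edgeR called 780 higher and 799 lower, while limma gave 510 and 344.

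Samples with the same replicate number deviated together (correlations of 0.113, 0.15 and 0.159 across genes), and a fit with that number as a block called more: 11 members higher and 10 lower, beside 12.7% and 13.0% of all genes. By arm these were 9 higher and 2 lower in the integrated stress response, and 2 higher and 8 lower in the ER unfolded protein response. All 8 genes named above were called in the same direction in the blocked fit, and its adjusted p stands below beside each member it added. In FPKM, all BR-shSPANXB1 samples lay above all BR-shCON samples for 10 members and below them for 6, beside 16.9% and 11.8% of all genes. For a single gene the exact permutation test of 3 against 3 samples cannot give a p below 0.1. In cultured cells measured in bulk, fewer cells expressing a gene and less RNA per cell cannot be told apart.

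**Figure D1:**
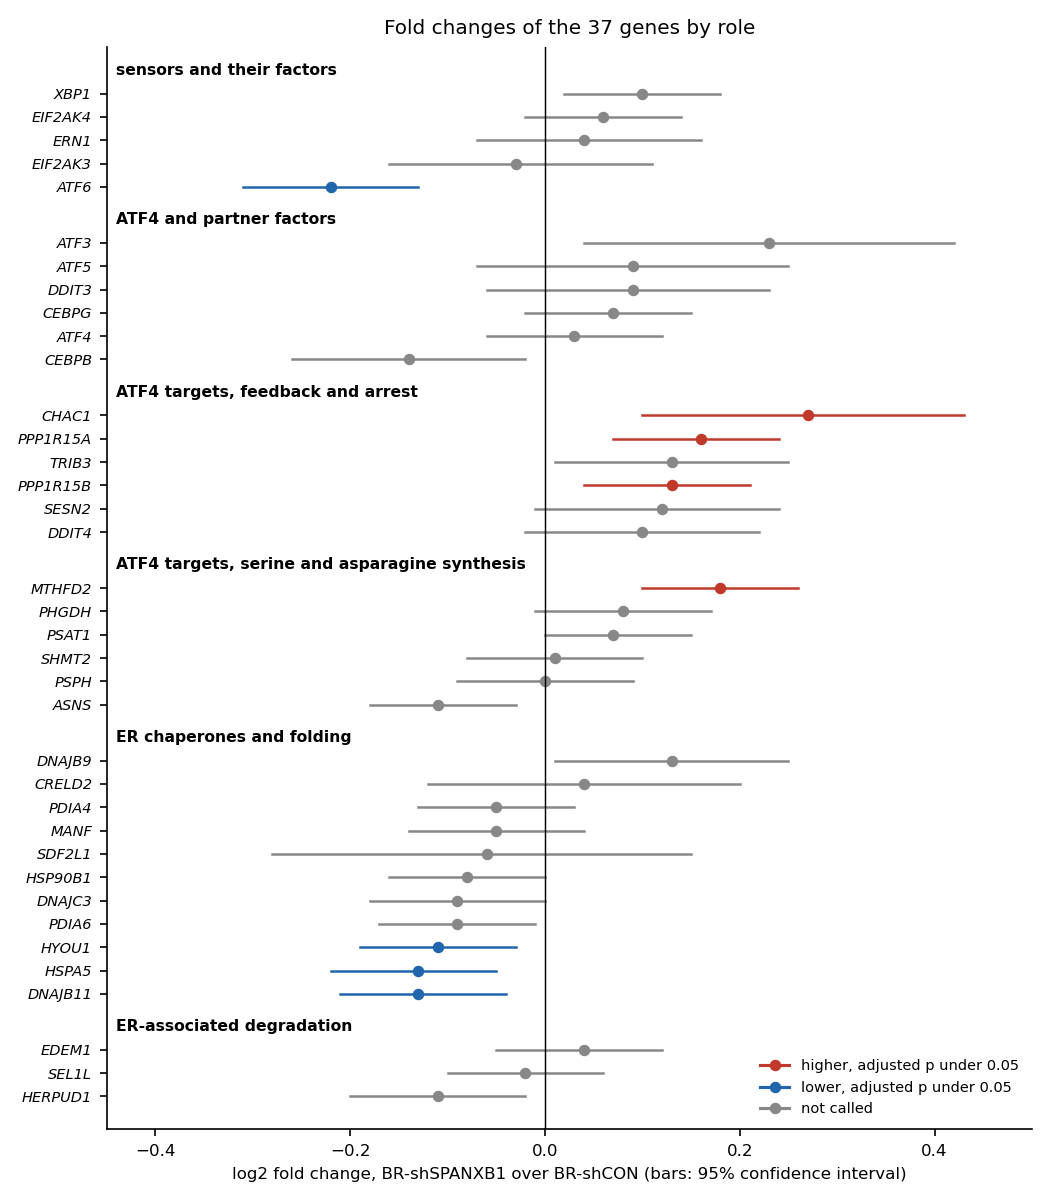
Log2 fold change (x axis, BR-shSPANXB1 over BR-shCON, n = 3 per group) of the 37 genes (y axis), grouped by role, with 95% confidence intervals from edgeR. The 4 higher genes, in red, lie in the groups of ATF4 targets and feedback, and the 4 lower genes, in blue, are ATF6 and 3 ER chaperones, and no point lies beyond 0.27.

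Of the 5 genes of sensors and their factors, ATF6 passed the test as lower with edgeR, beside 6.98% of all genes. With the block XBP1 passed too, as higher, beside 12.7% of all genes. ATF6 encodes the ER membrane protein whose cleaved part activates chaperone genes (Entrez 22926, chr1:161766294-161964070, GRCh38, plus strand). Its level was 26.3, 24.4 and 27.4 FPKM in BR-shCON and 22.2, 24.2 and 22.1 FPKM in BR-shSPANXB1. Every knockdown sample was below every control, though BR-shCON replicate 2 and BR-shSPANXB1 replicate 2 nearly met. This gave a log2 fold change of -0.22 (SE 0.04, adjusted p = 0.00097), a fall of mean level from 26.0 ± 1.52 to 22.8 ± 1.22 FPKM (SD, n = 3). Its call held in all 6 fits that left out 1 sample, with DESeq2 and with the block, and was not reached by limma on FPKM (adjusted p = 0.079).

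XBP1, whose mRNA is spliced by IRE1 into the message of an active factor, was at 91.9, 91.0 and 89.6 FPKM in BR-shCON and at 100.2, 98.4 and 96.7 FPKM in BR-shSPANXB1. The groups did not overlap, but the log2 fold change of 0.10 (SE 0.04) did not pass the test (adjusted p = 0.093, and 0.0084 with the block). ERN1, which encodes IRE1, was among the lowest members, at 5.41 to 5.91 FPKM in BR-shCON and 5.93 to 6.01 FPKM in BR-shSPANXB1. These did not overlap either, and the log2 fold change of 0.04 had an adjusted p of 0.66. The 2 kinases of eIF2 in the list did not pass. EIF2AK3, which encodes PERK, was at 5.97 to 6.38 FPKM in BR-shCON and 5.96 to 6.30 FPKM in BR-shSPANXB1, with a log2 fold change of -0.03 (95% confidence interval -0.16 to 0.11). EIF2AK4, which encodes GCN2, was at 26.4 to 28.0 FPKM and 28.0 to 28.6 FPKM, with a log2 fold change of 0.06 (-0.02 to 0.14).

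With edgeR 0 of the 6 genes of ATF4 and its partner factors passed the test. At an unadjusted p under 0.05 there were 2, ATF3 and CEBPB, and DESeq2 and limma called 0. ATF4 mRNA was abundant, at 335, 315 and 298 FPKM in BR-shCON and at 336, 335 and 309 FPKM in BR-shSPANXB1, and replicate 3 was the lowest of each group. In log2 terms the change was 0.03 (95% confidence interval -0.06 to 0.12), and -0.01 without BR-shCON replicate 3. ATF3, a stress-induced repressor and activator, had the largest log2 fold change of the 6, 0.23 (SE 0.09, adjusted p = 0.091). Its levels were 7.70, 8.47 and 8.20 FPKM in BR-shCON and 10.4, 10.2 and 8.35 FPKM in BR-shSPANXB1. Replicate 3 of the knockdown lay within the controls, and ATF3 was called with the block (adjusted p = 0.032) and without that replicate (0.026). Its depth was the thinnest of all members, at 212 to 281 counts.

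DDIT3 encodes CHOP, the factor tied to cell death under lasting ER stress. It was at 47.8, 49.9 and 41.0 FPKM in BR-shCON and at 53.1, 48.9 and 47.9 FPKM in BR-shSPANXB1, so the groups overlapped. Its log2 fold change was 0.09 (95% confidence interval -0.06 to 0.23, adjusted p = 0.47). Some exons of DDIT3 overlap those of MARS and MBD6 on the other strand, so part of its reads could belong elsewhere. CEBPB, a C/EBP factor with roles beyond this response, pointed the other way, at 83.3, 74.7 and 69.3 FPKM against 74.7, 66.9 and 67.0 FPKM. The controls spread widely and overlapped the knockdown, and the log2 fold change of -0.14 (SE 0.06) had an adjusted p of 0.11. CEBPB was called lower with the block (adjusted p = 0.00046), and when either BR-shCON replicate 3 (0.0043) or knockdown replicate 1 (0.037) was left out. CEBPG, a partner of ATF4 in dimers, was at 33.9 to 35.1 FPKM in BR-shCON and 35.9 to 37.6 FPKM in BR-shSPANXB1, which do not overlap, with a log2 fold change of 0.07 and an adjusted p of 0.30. ATF5, which like ATF4 is controlled at translation, was at 9.54 to 10.0 FPKM and 9.77 to 11.0 FPKM (log2 fold change 0.09, adjusted p = 0.53).

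Genes of the group of ATF4 targets, feedback and arrest were all above 0, and 3 of the 6 passed the test as higher, beside 6.82% of all genes. The 3 include PPP1R15B, placed here for feedback on eIF2. CHAC1 encodes an enzyme that degrades glutathione (Entrez 79094, chr15:40952962-40956519, plus strand) and had the largest fold change of the 37 genes. Its level was 18.3, 15.1 and 14.4 FPKM in BR-shCON and 20.6, 18.7 and 18.5 FPKM in BR-shSPANXB1. The lowest knockdown sample lay just above the highest control, which was replicate 1. The log2 fold change was 0.27 (SE 0.08, adjusted p = 0.023), or 20.3% higher, with 307 to 427 counts per sample. The call was lost without BR-shCON replicate 2 (adjusted p = 0.096), BR-shCON replicate 3 (0.093) or the first knockdown sample (0.11), and with DESeq2 (0.074).

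PPP1R15A encodes GADD34, the stress-induced subunit that directs a phosphatase to eIF2 and so reverses the block of translation (Entrez 23645, chr19:48872392-48876057, plus strand). It was at 153, 152 and 141 FPKM in BR-shCON and at 173, 169.8 and 158 FPKM in BR-shSPANXB1. Replicate 3 was the lowest of both groups, and still each knockdown sample lay above each control. This gave a log2 fold change of 0.16 (SE 0.04, adjusted p = 0.013), an 11.4% higher level. Leaving out control replicate 3, knockdown replicate 1 or knockdown replicate 2 ended the call (adjusted p = 0.057, 0.076 and 0.06). DESeq2 called PPP1R15A (0.012), and limma on log2(FPKM + 0.1) did not (0.061).

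PPP1R15B, the constitutive counterpart of PPP1R15A (Entrez 84919, chr1:204403387-204411791, minus strand), is grouped here for its role in feedback on eIF2 and changed in the same direction. Levels were 25.1, 25.6 and 25.3 FPKM in BR-shCON and 27.0, 27.4 and 29.3 FPKM in BR-shSPANXB1. The controls were tight and the knockdown samples all higher, with replicate 3 the highest. In log2 terms the change was 0.13 (SE 0.04, adjusted p = 0.042). This call ended when control replicate 1 or 2 (adjusted p = 0.13 and 0.078) or knockdown replicate 2 or 3 (0.067 and 0.25) was left out, and with DESeq2 (0.088).

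The remaining 3 genes of this group did not pass. TRIB3, a pseudokinase that feeds back on ATF4, was at 49.7, 51.4 and 43.5 FPKM in BR-shCON and at 57.1, 53.7 and 48.6 FPKM in BR-shSPANXB1. Only replicate 3 of the knockdown fell within the controls, and the log2 fold change of 0.13 (SE 0.06) had an adjusted p of 0.16, against 0.0028 with the block and 0.038 without that sample. DDIT4, which encodes the mTORC1 inhibitor REDD1, was at 109.7, 121 and 99.8 FPKM and at 122, 126 and 111 FPKM. Its log2 fold change of 0.10 (adjusted p = 0.26) was called with the block (0.0041) and, at 0.17, without BR-shCON replicate 2 (0.039). SESN2, a sestrin that senses leucine and holds back mTORC1, was at 10.2 to 11.0 FPKM and 11.0 to 12.3 FPKM (log2 fold change 0.12, adjusted p = 0.23).

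**Figure D2:**
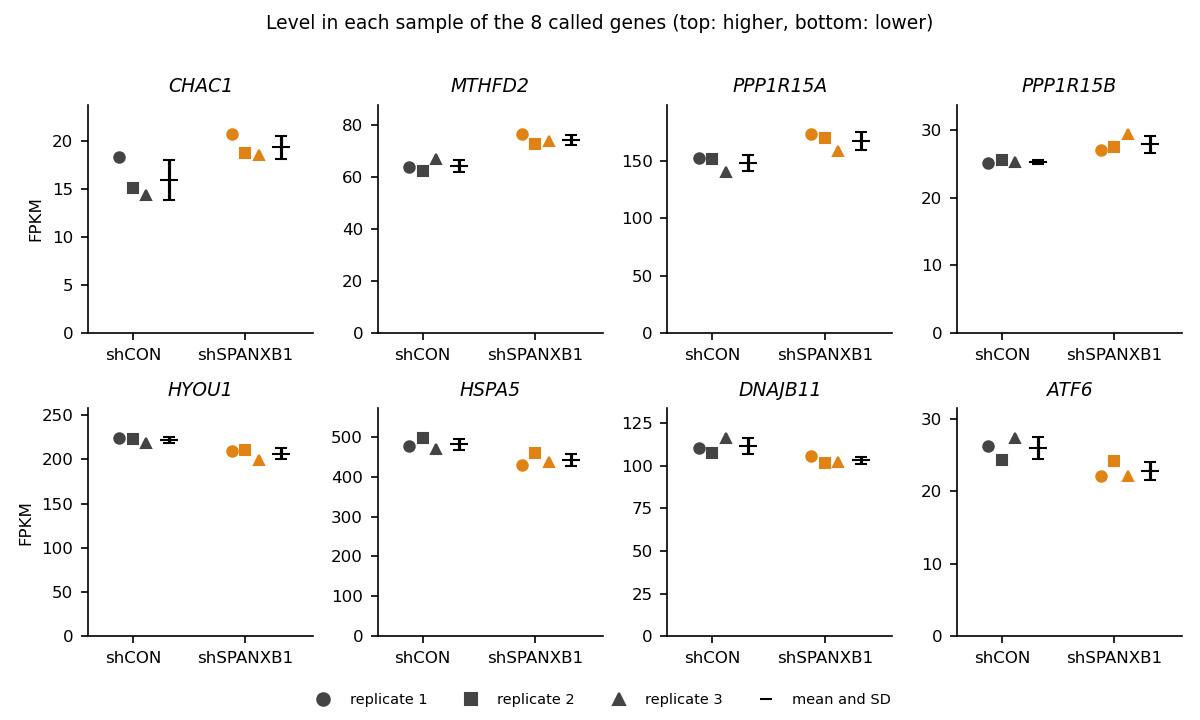
FPKM (y axis, from 0) of the 8 called genes in the 3 BR-shCON and 3 BR-shSPANXB1 samples, one marker shape per replicate number, with the mean and SD beside each group. Knockdown samples lie above all controls for CHAC1, MTHFD2, PPP1R15A and PPP1R15B and below all controls for HYOU1, HSPA5, DNAJB11 and ATF6, by steps that are small beside the level.

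Of the 6 targets of ATF4 in serine, glycine, folate and asparagine synthesis, 1 passed as higher, beside 6.82% of all genes. MTHFD2 encodes the mitochondrial enzyme of folate one-carbon metabolism (Entrez 10797, chr2:74198562-74217565, plus strand). It was at 64.1, 62.3 and 67.0 FPKM in BR-shCON and at 76.5, 73.0 and 73.8 FPKM in BR-shSPANXB1. The gap between the groups was wider than the range within either. The log2 fold change was 0.18 (SE 0.04, adjusted p = 0.0022), or 13.1% higher. MTHFD2 was the 1 member called in all 15 alternatives, with adjusted p from 1.3e-06 with the block to 0.028 with quantile normalization. Some of its exons overlap those of AC006030.1 and SLC4A5 on the other strand and 7 pseudogenes carry its name, so part of its reads could belong elsewhere.

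PSAT1 and PHGDH, which make serine from a glycolytic intermediate, had non-overlapping groups without passing. PSAT1 was at 305, 316 and 314 FPKM in BR-shCON and at 338, 332 and 325 FPKM in BR-shSPANXB1 (log2 fold change 0.07, adjusted p = 0.22, and 0.021 with the block). PHGDH was at 67.2 to 74.8 FPKM and 75.6 to 77.5 FPKM (log2 fold change 0.08, adjusted p = 0.23, and 0.048 with the block). PSPH, the last step of that route, was at 45.5 to 49.8 FPKM and 48.1 to 48.4 FPKM, with a log2 fold change of -0.001 (95% confidence interval -0.09 to 0.09). SHMT2, the mitochondrial enzyme that passes a carbon from serine to folate, was at 209 to 237 FPKM and 216 to 235 FPKM, with a log2 fold change of 0.01 (-0.08 to 0.10).

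ASNS, asparagine synthetase, had a log2 fold change below 0. Its level was 189.7, 195 and 180.0 FPKM in BR-shCON and 177, 172 and 170.1 FPKM in BR-shSPANXB1. Here every knockdown sample was below every control. The log2 fold change of -0.11 (SE 0.04) had an adjusted p of 0.067 and was called with the block (0.00094) and without BR-shCON replicate 3 (0.029). Summed over the 12 targets of both groups, levels were 1270, 1308 and 1217 FPKM in BR-shCON and 1358, 1345 and 1285 FPKM in BR-shSPANXB1, and the groups overlapped at replicate 3 of the knockdown.

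Of 11 ER chaperones and folding genes, 9 lay below 0 and 3 passed the test as lower, beside 6.98% of all genes. HSPA5 encodes BiP, the abundant HSP70 of the ER lumen (Entrez 3309, chr9:125234853-125241330, minus strand), and stood at 476, 497 and 469 FPKM in BR-shCON and at 430.1, 458 and 437 FPKM in BR-shSPANXB1. The highest knockdown sample, replicate 2, was below the lowest control, and replicate 2 was also the highest control. This gave a log2 fold change of -0.13 (SE 0.04, adjusted p = 0.02), with 25474 to 29797 counts per sample, so counting error was small beside the spread. Leaving out control replicate 2, knockdown replicate 1 or knockdown replicate 3 ended the call (adjusted p = 0.11, 0.11 and 0.057). DESeq2 made the call (0.0046), and limma on log2(FPKM + 0.1) did not (0.1).

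DNAJB11, an ER co-chaperone of BiP (Entrez 51726, chr3:186567403-186585800, plus strand), was at 111, 107 and 116 FPKM in BR-shCON and at 106, 102 and 102 FPKM in BR-shSPANXB1. The groups were separate by a narrow gap. In log2 terms the change was -0.13 (SE 0.04, adjusted p = 0.037). Leaving out control replicate 1 or 3 (adjusted p = 0.074 and 0.14) or knockdown replicate 2 or 3 (0.12 and 0.088) ended the call, as did DESeq2 (0.069). Some of its exons overlap those of AC068631.1 and TBCCD1 on the other strand.

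HYOU1 encodes a large ER chaperone that exchanges the nucleotide of BiP (Entrez 10525, chr11:119044189-119057202, minus strand, with an exon overlapping AP003392.3 on the other strand). Its level was 224, 223 and 218 FPKM in BR-shCON and 209, 211 and 199 FPKM in BR-shSPANXB1. Replicate 3 was the lowest in each group, and the groups did not overlap. The log2 fold change was -0.11 (SE 0.04, adjusted p = 0.046). The call held without BR-shCON replicate 3 and was lost without any other single sample (BR-shCON replicates 1 and 2 at 0.11 and 0.12, BR-shSPANXB1 replicates 1, 2 and 3 at 0.087, 0.054 and 0.17). DESeq2 called HYOU1 (0.017), and limma on log2(FPKM + 0.1) did not (0.13).

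HSP90B1, the ER form of HSP90, was the most abundant member and did not pass the test. Levels were 792, 818 and 828 FPKM in BR-shCON and 748, 801 and 788 FPKM in BR-shSPANXB1, and only BR-shSPANXB1 replicate 2 lay within the controls. This gave a log2 fold change of -0.08 (SE 0.04, adjusted p = 0.21, and 0.0086 with the block). PDIA6, a protein disulfide isomerase, was at 292, 311 and 304 FPKM and at 283, 291 and 285 FPKM, just separate, with a log2 fold change of -0.09 (adjusted p = 0.10, and 0.0022 with the block). PDIA4, of the same family, was at 143 to 148 FPKM and 141 to 145 FPKM (log2 fold change -0.05, adjusted p = 0.43). DNAJC3, an ER co-chaperone also known as an inhibitor of PERK and related kinases, was at 22.4 to 24.8 FPKM and 21.7 to 23.4 FPKM, with a log2 fold change of -0.09 (adjusted p = 0.21, and 0.03 with the block).

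DNAJB9, an ER co-chaperone induced through XBP1, was, with CRELD2, one of 2 chaperones with a fold change above 0. It was at 17.7, 17.1 and 18.3 FPKM in BR-shCON and at 19.9, 19.2 and 19.6 FPKM in BR-shSPANXB1, without overlap. The log2 fold change of 0.13 (SE 0.06) had an adjusted p of 0.13, and 0.047 with the block. Of 3 small genes often used as markers of ER stress, MANF, a secreted ER stress protein, was at 131 to 137 FPKM and 128 to 134 FPKM, with a log2 fold change of -0.05 (95% confidence interval -0.14 to 0.04). CRELD2 was at 15.7 to 18.4 FPKM and 16.9 to 18.7 FPKM, with a log2 fold change of 0.04 (-0.12 to 0.20) that was -0.02 without BR-shCON replicate 3. SDF2L1, a partner of DNAJB11 in the ER, varied most between the controls, at 35.5, 31.8 and 24.7 FPKM in BR-shCON and at 27.6, 30.6 and 31.9 FPKM in BR-shSPANXB1, and its log2 fold change of -0.06 (-0.28 to 0.15) was 0.07 without BR-shCON replicate 1.

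Summed over the 11 chaperones, levels were 2262, 2326 and 2305 FPKM in BR-shCON and 2139, 2232 and 2173 FPKM in BR-shSPANXB1. As a share of all FPKM of a sample this was 0.442% to 0.449% in BR-shCON and 0.412% to 0.423% in BR-shSPANXB1. The knockdown samples were lower throughout, and HSP90B1, HSPA5 and PDIA6 made up most of the sum. Set beside the promoter elements, 1 of the 4 genes with ERSE (HSPA5) and 1 of the 3 with ERSE-II (HYOU1) were called, both lower, and 2 of the 5 with CARE (CHAC1 and PPP1R15B) were called, both higher, beside 6.98% of all genes lower and 6.82% higher. These counts are too small to read a link between element and direction, and none was tested. The windows of ATF6, DNAJB11, PPP1R15A and MTHFD2 held none of the 4 elements in the letters searched.

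Of the 3 genes of ER-associated degradation 0 passed with edgeR, 1 was at an unadjusted p under 0.05, and DESeq2 and limma called 0. HERPUD1, a scaffold of the ubiquitin ligase complex at the ER membrane, was at 57.6, 59.4 and 59.2 FPKM in BR-shCON and at 53.7, 58.5 and 53.0 FPKM in BR-shSPANXB1. Replicate 2 of the knockdown lay within the controls, and the log2 fold change of -0.11 (SE 0.04) had an adjusted p of 0.091, against 0.0047 with the block and 0.026 without that sample. EDEM1, a lectin that hands over misfolded glycoproteins, was at 21.9 to 22.2 FPKM and 22.2 to 24.0 FPKM, with a log2 fold change of 0.04 (95% confidence interval -0.05 to 0.12). SEL1L, the adaptor of the ligase HRD1, was at 42.6 to 45.6 FPKM and 44.0 to 44.6 FPKM, with a log2 fold change of -0.02 (-0.10 to 0.06).

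Samples varied within each group in a way that many genes of the integrated stress response shared. Replicate 3 was the lowest of the 3 samples for 13 of these 20 genes in BR-shCON and for 13 in BR-shSPANXB1, and for 10 of the 20 in both. Over all genes tested replicate 3 was the lowest for 35.8% in BR-shCON, for 31.9% in BR-shSPANXB1 and for 16.5% in both. Among the genes of the feedback and arrest group, 5 of 6 were lowest in replicate 3 of both groups, all but PPP1R15B. Of the 17 genes of the ER arm, 3 (17.6%) were lowest in replicate 3 of both. The coefficient of variation within BR-shCON had a median of 4.52% over the integrated stress response genes and 3.28% over the ER genes, beside 4.88% over all genes. These shares describe 2 sets of samples and carry no test.

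**Figure D3:**
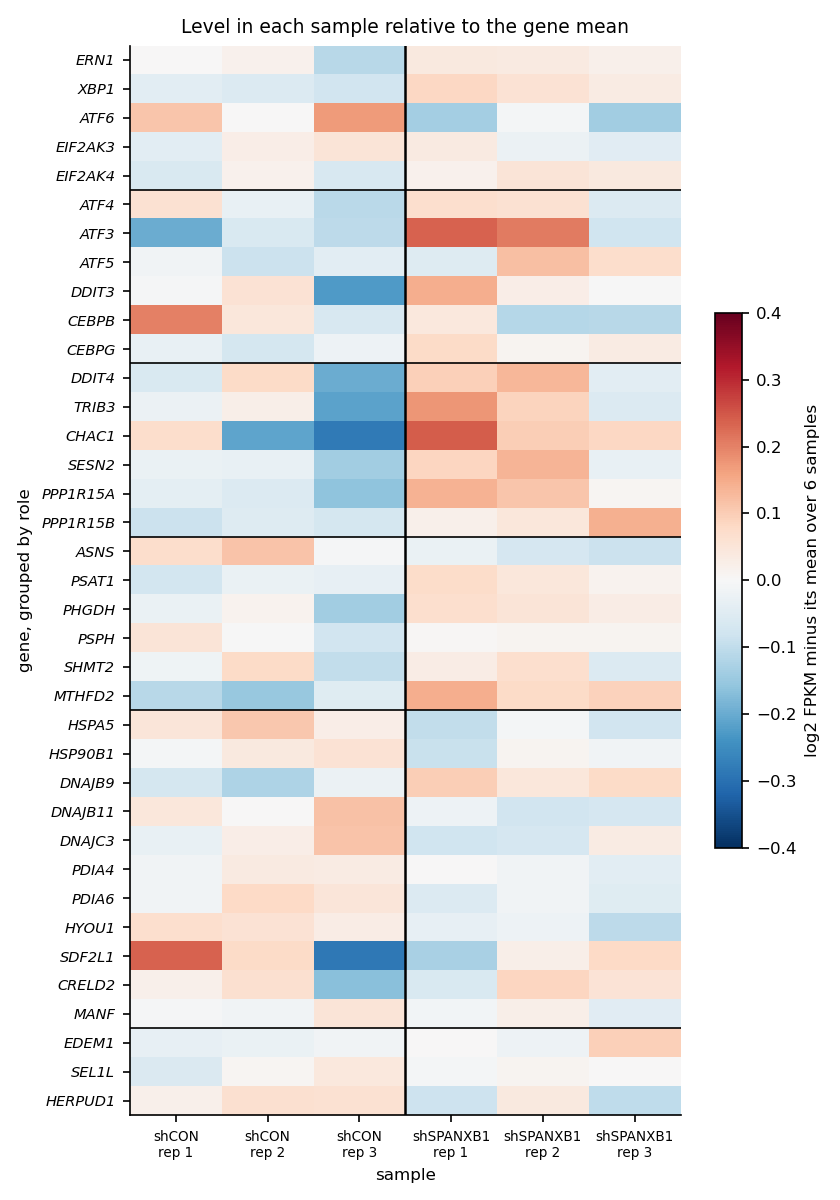
Log2 FPKM of each of the 37 genes (rows, grouped by role and split by lines) in each of the 6 samples (columns), minus the mean of the gene over the samples. Blue cells stand below the mean and red cells above, and BR-shCON replicate 3 (the third column) is the bluest cell in the rows of DDIT4, TRIB3, CHAC1, SESN2 and PPP1R15A.

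Neighbouring genes of both pathways were read from 10 lists of 150 genes in all, of which 143 were tested. Of these, 11 were higher and 14 lower, 17.5% beside 13.8% of all genes (6.82% higher and 6.98% lower). With the block these were 25 and 28, beside 12.7% and 13.0% of all genes. Over all genes DESeq2 called 502 higher and 518 lower, and limma on log2(FPKM + 0.1) 510 and 344. Amino acid transporters had 3 of 10 higher and 0 lower (6 and 1 with the block), 30.0% called beside 13.8% of all genes. DESeq2 and limma each called 2 of them higher and 0 lower. SLC1A4, which carries serine and alanine, rose from 14.9, 14.8 and 13.9 FPKM to 19.2, 19.5 and 18.1 FPKM, with a log2 fold change of 0.35 (SE 0.05, adjusted p = 1.3e-05). SLC6A9, a glycine transporter, rose by 0.32 on the log2 scale (SE 0.06, adjusted p = 0.00074), and SLC43A1, a carrier of large neutral amino acids, by 0.27 (SE 0.08, adjusted p = 0.023). The call of SLC43A1 was lost without control replicate 1 (0.11), control replicate 3 (0.059) or knockdown replicate 3 (0.10), and with DESeq2 (0.088).

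Of 12 tRNA synthetases, many of them ATF4 targets, 11 lay above 0, beside 50.1% of all genes. As higher 2 passed and as lower 0, 16.7% called beside 13.8% of all genes. With the block 5 were higher and 1 lower, beside 12.7% and 13.0% of all genes. DESeq2 called 2 higher and limma 1, and both called 0 lower. CARS1 was at 64.2, 65.6 and 63.6 FPKM in BR-shCON and at 72.1, 73.5 and 72.5 FPKM in BR-shSPANXB1 (log2 fold change 0.16, adjusted p = 0.0057), and was called in all 15 alternatives. YARS1 had a log2 fold change of 0.13 (adjusted p = 0.022) and lost its call without control replicate 1 (0.096), control replicate 2 (0.11), knockdown replicate 2 (0.067) or knockdown replicate 3 (0.083). In a list of 16 other tested ATF4 targets the median was 0.009, and 1 gene rose and 1 fell, 12.5% called beside 13.8% of all genes. DESeq2 and limma gave the same counts for this list. GADD45A, a growth arrest gene, was higher by 0.19 on the log2 scale (adjusted p = 0.0093, and 0.054 without control replicate 3). GDF15, a secreted stress cytokine with inputs besides ATF4, was lower, at 23.6, 21.6 and 15.9 FPKM in BR-shCON and at 14.5, 14.5 and 12.9 FPKM in BR-shSPANXB1 (log2 fold change -0.54, SE 0.11, adjusted p = 0.0024). Of 15 genes of eIF2, its kinases and its exchange factor, 1 passed (6.67%, beside 13.8% of all genes). With the block 4 of them were higher and 1 lower, beside 12.7% and 13.0% of all genes. The 1 called without the block was EIF2S2, the beta subunit of eIF2, at a log2 fold change of 0.13 (adjusted p = 0.022). Its FPKM overlapped between the groups, and its call was lost without control replicate 1 (0.058), control replicate 2 (0.12), knockdown replicate 2 (0.069) or knockdown replicate 3 (0.09). DESeq2 called EIF2S2 (0.0084), and limma on log2(FPKM + 0.1) did not (0.42).

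Of 22 other tested ER folding genes, 17 lay below 0, 3 passed as lower and 1 as higher, 18.2% called beside 13.8% of all genes. With the block 7 were lower and 1 higher, beside 13.0% and 12.7% of all genes. DESeq2 called 4 lower and 0 higher, and limma 1 and 1. ERO1A, the oxidase that recharges protein disulfide isomerase, was at 45.1, 41.2 and 46.8 FPKM in BR-shCON and at 36.9, 35.3 and 36.0 FPKM in BR-shSPANXB1, with a log2 fold change of -0.31 (SE 0.04, adjusted p = 8.3e-06). This was larger than the fall of any of the 11 chaperones and was called in all 15 alternatives. P4HB, protein disulfide isomerase itself, had a log2 fold change of -0.14 (adjusted p = 0.016), lost without control replicate 1 (0.064), control replicate 2 (0.063) or knockdown replicate 3 (0.077). TXNDC12, an ER thioredoxin, had a log2 fold change of -0.18 (adjusted p = 0.016), lost without knockdown replicate 1 (0.11) or knockdown replicate 2 (0.061). TXNDC11, another thioredoxin of the ER, had a log2 fold change of 0.26 (adjusted p = 0.018). This call was lost without control replicate 2 (0.10), knockdown replicate 1 (0.068) or knockdown replicate 3 (0.058), and with DESeq2 (0.075).

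Genes of protein entry into the ER moved in both directions, with 1 of 20 higher and 4 lower, 25.0% called beside 13.8% of all genes. With the block 4 were higher and 7 lower, beside 12.7% and 13.0% of all genes. DESeq2 and limma each called 0 higher and 3 lower. SPCS3, of the signal peptidase, was at 45.8, 45.4 and 46.3 FPKM in BR-shCON and at 37.2, 33.0 and 36.3 FPKM in BR-shSPANXB1 (log2 fold change -0.38, SE 0.04, adjusted p = 2.5e-07). SSR1, of the translocon-associated complex, had a log2 fold change of -0.24 (adjusted p = 0.00016), and SEC61A1, the channel, one of -0.16 (adjusted p = 0.0041). SRPRB, of the signal recognition particle receptor and named after its value was seen, had a log2 fold change of -0.13 (adjusted p = 0.048). It passed without control replicate 1 and reached an adjusted p of 0.072 to 0.18 without any other single sample. DESeq2 did not call SRPRB (0.11). SSR2, of the same complex as SSR1, had a log2 fold change of 0.14 (adjusted p = 0.03). This call was lost without control replicate 1 (0.15) or knockdown replicate 1 or 2 (0.12 in both), and with DESeq2 (0.062). Of 16 other tested genes of ER-associated degradation, 1 was higher and 1 lower, 12.5% called beside 13.8% of all genes. FAF2, which recruits the ATPase VCP to the ER, had the largest fall of all the lists. It was at 31.6, 31.4 and 34.7 FPKM in BR-shCON and at 21.2, 22.1 and 22.6 FPKM in BR-shSPANXB1 (log2 fold change -0.58, SE 0.05, adjusted p = 2.2e-10). OS9, a lectin of the same route, had a log2 fold change of 0.13 (adjusted p = 0.029). Its call was lost without control replicate 1 (0.13), control replicate 2 (0.052) or knockdown replicate 2 (0.18), and with DESeq2 (0.058). With the block 3 genes of that list were higher and 2 lower, beside 12.7% and 13.0% of all genes. DESeq2 and limma each called 0 of them higher and 1 lower.

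Among 9 tested genes of the CREB3 and ATF6 families, 1 was higher and 1 lower, 22.2% called beside 13.8% of all genes. The block also gave 1 and 1, beside 12.7% and 13.0% of all genes, as did DESeq2 and limma. CREB3L1, a membrane-bound factor cleaved like ATF6, was at 8.31, 8.26 and 7.57 FPKM in BR-shCON and at 12.3, 10.1 and 10.0 FPKM in BR-shSPANXB1 (log2 fold change 0.41, SE 0.08, adjusted p = 0.00075). MBTPS2, the site-2 protease that makes the second cut of ATF6, was lower at 5.59, 5.39 and 5.73 FPKM against 4.82, 4.55 and 4.52 FPKM (log2 fold change -0.28, SE 0.07, adjusted p = 0.0086). Both were called in all 15 alternatives.

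The cytosolic heat shock response was read as a neighbouring chaperone system of another compartment. Of its 13 genes 4 were lower and 0 higher, 30.8% called beside 13.8% of all genes, and 11 lay below 0. With the block 5 were lower and 0 higher, beside 13.0% and 12.7% of all genes. DESeq2 called 3 lower and limma 1, beside 518 and 344 over all genes tested, and neither called 1 higher. HSPH1, an exchange factor of HSP70, had a log2 fold change of -0.23 (SE 0.04, adjusted p = 0.00052). HSPA8, the constitutive HSP70, was at 1296, 1329 and 1440.0 FPKM in BR-shCON and at 1185, 1223 and 1230.3 FPKM in BR-shSPANXB1 (log2 fold change -0.18, SE 0.04, adjusted p = 0.0041). This call was made in 12 of 15 alternatives and not by limma on log2(FPKM + 0.1) (0.074). HSF1, the main factor of that response, had a log2 fold change of -0.15 (adjusted p = 0.038). Among the fits that left out 1 sample, this call held only without control replicate 3, with the adjusted p at 0.053 to 0.23 in the others. HSF1 was not called by DESeq2 (0.088) or by limma on log2(FPKM + 0.1) (0.18). DNAJA1, a cytosolic co-chaperone, had a log2 fold change of -0.13 (adjusted p = 0.031). This call was lost without control replicate 2 (0.059), control replicate 3 (0.16), knockdown replicate 1 (0.062) or knockdown replicate 2 (0.11). DESeq2 called DNAJA1 (0.034), and limma on log2(FPKM + 0.1) did not (0.16). Of 10 mitochondrial chaperones and proteases 0 passed with edgeR, 2 were at an unadjusted p under 0.05 (26.9% of all genes), and DESeq2 and limma called 0. With the block 2 were lower, beside 13.0% of all genes.

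**Figure D4:**
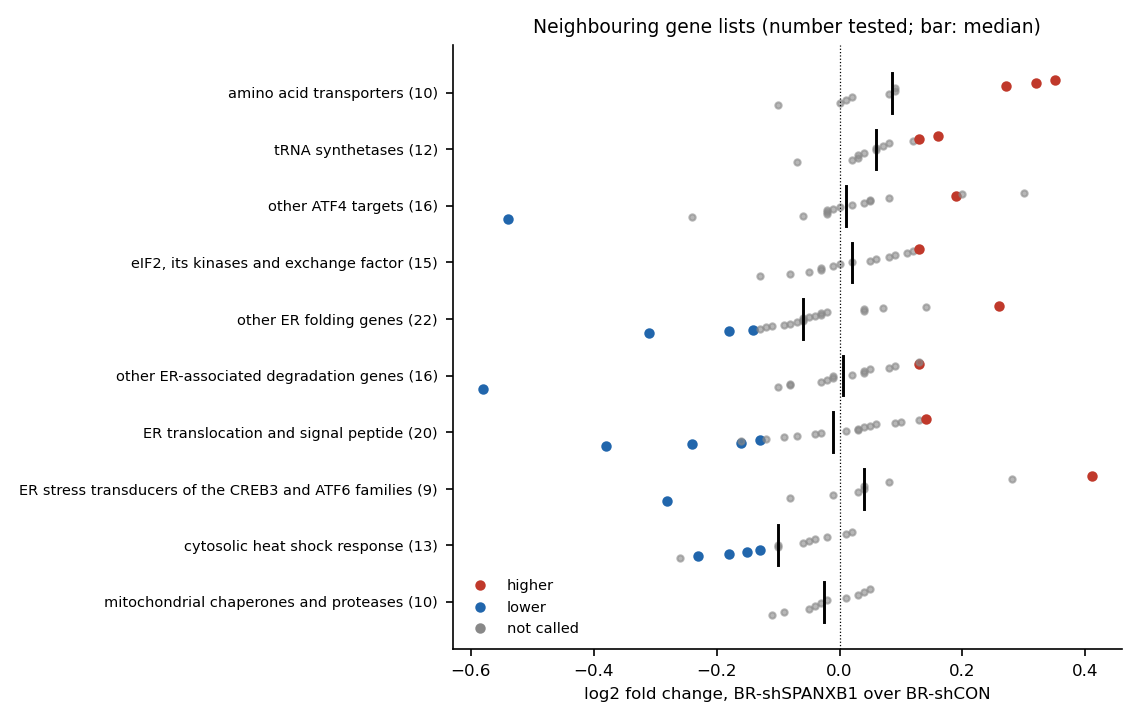
Log2 fold change (x axis, BR-shSPANXB1 over BR-shCON) of each tested gene of the 10 neighbouring lists (y axis, number tested in brackets), with called genes in red (higher) or blue (lower) and a bar at the median of the list. Called amino acid transporters and tRNA synthetases all lie to the right, called cytosolic heat shock genes to the left, and the lists of ER genes hold called genes on both sides.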

How the data were processed

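RNA-seq of 6 samples was analysed, 3 BR-shCON and 3 BR-shSPANXB1, grouped by the titles in the labels. Libraries were made from poly(A) RNA without a step that marks strand and sequenced as paired ends on a BGISEQ-500. The table the authors deposited holds unnormalized estimated counts (14.5% of them not whole) and FPKM values, scaled by transcript length and mapped fragments. Per the submitters' processing notes, GRCh38.p12, Bowtie2 2.2.5 and HISAT2 2.0.4 belong to the pipeline, without a stated role. The 6 TPM columns were not used. The counting program and its annotation were not given in the sources used here.

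Estimated counts were rounded and tested with edgeR 4.0.16 (TMM, robust quasi-likelihood fit, Benjamini-Hochberg adjustment, two-sided, R 4.3.3), keeping the 11439 genes whose mean FPKM reached 1. FPKM values are given per sample, and standard errors and 95% confidence intervals belong to the log2 fold changes. Single genes also had an exact two-sided permutation test on log2(FPKM + 0.1). Alternatives were other size factors, DESeq2 1.42.0, limma 3.58.1 on log2 FPKM with other pseudocounts or quantile normalization, other expression filters, the replicate number as a block, and leaving out each sample in turn. The scripts were tested on simulated data. Totals of 16294462 to 16666167 counts leave the precision to the spread between 3 samples and, for genes of few counts, to counting error.

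Samples sharing a number deviated together from their group means on log2 CPM (correlations across genes of 0.113, 0.15 and 0.159). As all exceeded 0.1, values of a fit with the number as a block are given beside the results they change. On log2(FPKM + 0.1) the first was 0.0964. Neither labels nor paper say what a number shares, and the fit without the block was kept as the reported one.

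The members and lists were chosen with earlier results of these data known. The genes named were all 37 members, SPANXB1 and up to 4 called genes per list, taken by adjusted p. SRPRB was named beyond this rule, after its value was seen. Positions are those of GENCODE v29 (GRCh38). Of the members, 14 have an exon overlapping one on the other strand and 6 have pseudogenes named after them, where the counting may have split reads. Promoters came from RefSeq (GRCh38.p14). Figures were drawn with matplotlib 3.10.9.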

Additional observations from a re-analysis of the deposited data

How the results depend on the processing

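Over the 37 genes and 15 alternatives, 462 of 555 fold changes kept their direction and their side of the threshold, 53 lost a call (7 genes), 23 gained one (13 genes) and 17 changed sign (6 genes, none called). Of the 8 called genes MTHFD2 alone kept its call throughout. With the replicate block, genes of the integrated stress response were called higher in 9 and lower in 2 cases, ER genes in 2 and 8, and all genes in 1452 and 1483. It ended none of the 8 calls. DESeq2 called 2 integrated stress response genes higher, and 502 genes higher and 518 lower in all. On log2 FPKM with a pseudocount of 0.1, 1 or 0.01, limma called 1 integrated stress response gene higher and 0 ER genes lower, and in all 510, 511 or 510 higher and 344, 345 or 343 lower. With quantile normalization these were 1, 2, 418 and 417. Without an expression filter 1 integrated stress response gene was lower. Leaving out 1 sample gave 2 to 5 integrated stress response genes higher and 0 to 2 lower, 0 ER genes higher and 1 to 3 lower, and in all 532 to 714 genes higher and 509 to 752 lower. A lone sample did not arise, since 2 remained in the group. Sign changes without 1 sample gave ranges of -0.01 to 0.08 for ATF4, -0.02 to 0.1 for CRELD2, -0.04 to 0.03 for PSPH, -0.2 to 0.07 for SDF2L1, -0.04 to 0.003 for SEL1L and -0.03 to 0.05 for SHMT2. PSPH was also at 0.02 with limma at each pseudocount, 0.0015 with quantile normalization and 0.0012 with the filter at a mean FPKM of 5, and SEL1L at 0.0038, 0.0037 and 0.0038 with limma at pseudocounts of 0.1, 1 and 0.01. The cause of these shifts was not tested. Genes with few counts, such as ATF3 and SDF2L1, had the widest intervals, and the samples were too few for a single gene to pass an exact test.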
